A study of Homo sapiens with 8 samples.

Results

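The PCNA peaks that flank the centromere gap of chromosome 10 are described, that is, all peaks of the 4 deposited lists that start from 38 Mb to below 44 Mb on chromosome 10 of hg19. The rule uses the position alone and found 522 of the 4020 listed peaks. The short-arm and long-arm sides were split at 41 Mb, inside the assembly gap of the centromere. PCNA was immunoprecipitated from MCF10A cells, which are immortalized epithelial cells of the human mammary gland that form no tumours, and from *TUBG*-shRNA-MCF10A cells (shRNA cells below), which carry a stably transfected short hairpin RNA against γ-tubulin and were selected with Zeocin. Both were synchronized by a double thymidine block, which holds cells at the border of S phase, and were harvested 1 h or 2 h after release. For each condition, 1 list of peaks was called on 2 pooled ChIP libraries (8 libraries in all) against a whole-cell lysate, so replicates cannot be set against each other and no difference between lists was tested. Whether the shRNA cells came from 1 clone is not stated in the labels, and peak positions give no check of the level of γ-tubulin or of the cell type.

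PCNA is the ring-shaped clamp that encircles DNA and tethers DNA polymerases at replication forks, and it is also loaded during repair synthesis. The DNA beside human centromeres is rich in satellite repeats and duplicated segments and is largely packed as heterochromatin, much of which replicates late in S phase. Reads from repeat copies that an assembly does not hold can align to the copies that it does hold, which raises the signal in immunoprecipitates and in lysate controls alike. Therefore, the local background that the fold enrichment was measured against is described as well.

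The window held 65 peaks in MCF10A cells at 1 h and 380 at 2 h, and 35 peaks in shRNA cells at 1 h and 42 at 2 h. These were 11.6%, 13.7%, 12.1% and 10.5% of the respective lists. On chromosome 10 outside the window, the same lists had only 4, 27, 2 and 2 peaks. The window was isolated on the chromosome, as the nearest other MCF10A peaks at 2 h started at 32851676 and 53701314. At 1 h, the nearest other MCF10A peaks started at 6331550 and 56833128. In shRNA cells, the nearest peaks below the window started at 10149936 at 1 h and at 10149922 at 2 h, and the nearest above it at 2 h started at 131531578.

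On the short-arm side, MCF10A cells had 20 peaks (1 h) and 150 peaks (2 h), and shRNA cells had 3 at each time. On the long-arm side, MCF10A cells had 45 and 230, and shRNA cells had 32 and 39. Hence, the long arm carried 69.2% (95% Wilson interval 57.2 to 79.1) of the window's MCF10A peaks at 1 h and 60.5% (55.5 to 65.3) at 2 h. In shRNA cells, it carried 91.4% (77.6 to 97.0) at 1 h and 92.9% (81.0 to 97.5) at 2 h. For the MCF10A lists, the side with more peaks depended on how they were counted. With peaks within 1 kb joined, the long arm carried 45.2% at 1 h and 36.1% at 2 h, and with a fold of at least 5 it carried 33.3% and 50.4%. In shRNA cells at 1 h, it carried 33.3% of the 3 peaks with such a fold. The short-arm side was nearly empty in the shRNA lists, while the long-arm side was populated in all 4 lists. These intervals cover counting error only, and they are too narrow because neighbouring peaks are not independent.

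**Figure D1:**
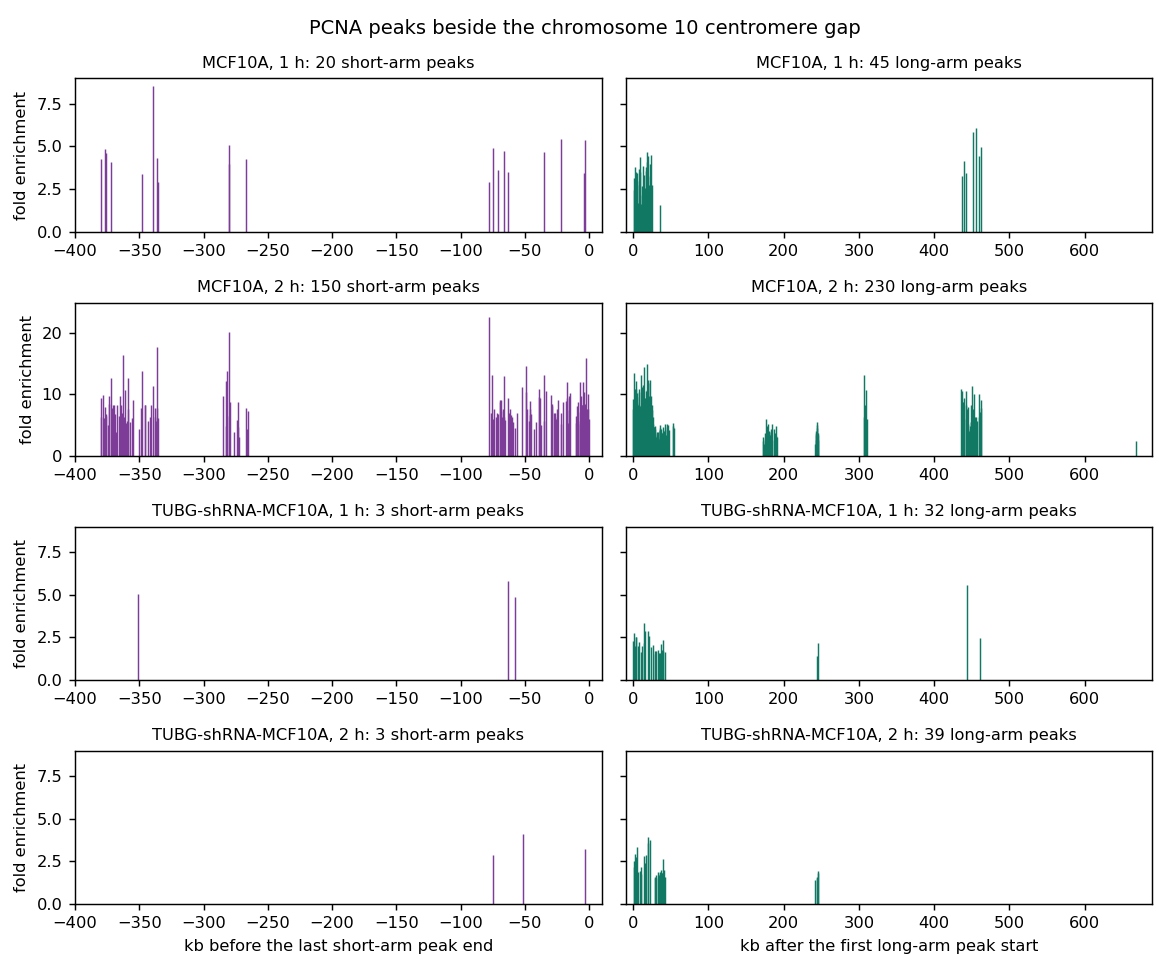
Fold enrichment over the local background (y axis) of every PCNA peak against its distance in kb (x axis) from the last short-arm peak end (left) or the first long-arm peak start (right), 1 row per list; the y scale of MCF10A at 2 h differs from the other rows. The short-arm side holds 20, 150, 3 and 3 peaks and the long-arm side 45, 230, 32 and 39, from the top row to the bottom row.

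From 1 h to 2 h after release, the number of MCF10A peaks was 7.5 times as high on the short-arm side (95% exact binomial interval 4.69 to 12.6) and 5.11 times as high on the long-arm side (3.70 to 7.20). In shRNA cells, the ratio of 2 h to 1 h was 1.0 on the short-arm side (0.134 to 7.47) and 1.22 on the long-arm side (0.744 to 2.01). Both intervals include equal numbers. All ratio intervals here cover counting error only and are too narrow, since neighbouring peaks are not independent. Between the cell populations at 1 h, MCF10A cells had 6.67 times as many short-arm peaks (1.98 to 35.0) and 1.41 times as many long-arm peaks (0.874 to 2.29). At 2 h, these ratios were 50 on the short-arm side (16.8 to 245) and 5.90 on the long-arm side (4.19 to 8.51). Some of these ratios changed when peaks within 1 kb of each other were counted once. The MCF10A ratio of 2 h to 1 h was then 2.29 on the short-arm side (1.27 to 4.32) and 1.57 on the long-arm side (0.769 to 3.32). The long-arm ratio of MCF10A to shRNA cells was then 0.636 at 1 h (0.301 to 1.30) and 1.83 at 2 h (0.869 to 4.06), and shRNA cells had a long-arm ratio of 2 h to 1 h of 0.545 (0.246 to 1.15). Peak calling for MCF10A cells at 2 h used fragments of 47 bp, against 112 to 121 bp elsewhere, a difference that cannot be told apart from that of the condition.

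For comparison, peaks at the centromere of chromosome 4 (48 to 53 Mb) numbered 129 and 279 in MCF10A cells at 1 and 2 h, a ratio of 2.16 (1.75 to 2.69). At the centromere of chromosome 16 (31 to 48 Mb), there were 59 and 165, a ratio of 2.80 (2.07 to 3.83). All peaks outside the chromosome 10 window gave a ratio of 4.80 (4.36 to 5.30), and the window itself one of 5.85 (4.48 to 7.73). These values are set side by side without a test, since peaks in clusters are not independent. With peaks within 1 kb joined, the ratio was 1.97 in the window (1.26 to 3.14), 1.57 at the chromosome 16 region (0.903 to 2.77) and 3.51 over all other peaks (3.07 to 4.03), while the MCF10A peaks of the chromosome 4 region at 2 h merged into 2 stretches. At 1 h, the ratio of MCF10A to shRNA peaks was 1.86 in the window, 1.95 over all other peaks (1.67 to 2.28), 2.15 at the chromosome 4 region (1.57 to 2.97) and 1.02 at the chromosome 16 region (0.696 to 1.49). The ratio of MCF10A to shRNA peaks at 2 h was 9.05 in the window (6.57 to 12.8), 6.67 over all other peaks (5.97 to 7.47), 3.72 at the chromosome 4 region (2.87 to 4.87) and 2.29 at the chromosome 16 region (1.73 to 3.07).

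The peaks did not spread evenly over the window. When the peaks of all lists within 20 kb of each other were joined, they formed 9 blocks with a peak-free stretch of 3201 kb between the sides, from 39154305 to 42354965. The short-arm side had 3 blocks. The first (chr10:38774216-38818816, 44.6 kb) held 8 and 48 MCF10A peaks at 1 and 2 h, and 1 and 0 shRNA peaks. The second (chr10:38869104-38888778, 19.7 kb) held 3 and 16 MCF10A peaks and none of shRNA cells. The third, next to the gap (chr10:39076709-39154305, 77.6 kb), held 9 and 86 MCF10A peaks, and 2 and 3 shRNA peaks. All 3 short-arm blocks were thus occupied in MCF10A cells at both times.

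On the long-arm side, the block next to the gap (chr10:42354965-42409290, 54.3 kb) was the most populated in every list, with 38 and 144 MCF10A peaks and 28 and 34 shRNA peaks. The second (chr10:42527534-42546146, 18.6 kb) held 25 peaks, all of MCF10A cells at 2 h. The third (chr10:42596823-42600462, 3.64 kb) held 0 and 14 MCF10A peaks, and 2 and 5 shRNA peaks. Hence, this small block was the only one with peaks of shRNA cells at 1 h and none of MCF10A cells at 1 h. The fourth (chr10:42661432-42665680, 4.25 kb) held 8 peaks, all of MCF10A cells at 2 h. The fifth (chr10:42790598-42816923, 26.3 kb) held 7 and 38 MCF10A peaks, and 2 and 0 shRNA peaks. The last member of the window was a single MCF10A peak at 2 h (chr10:43023157-43023226) with a 2.38-fold enrichment.

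**Figure D2:**
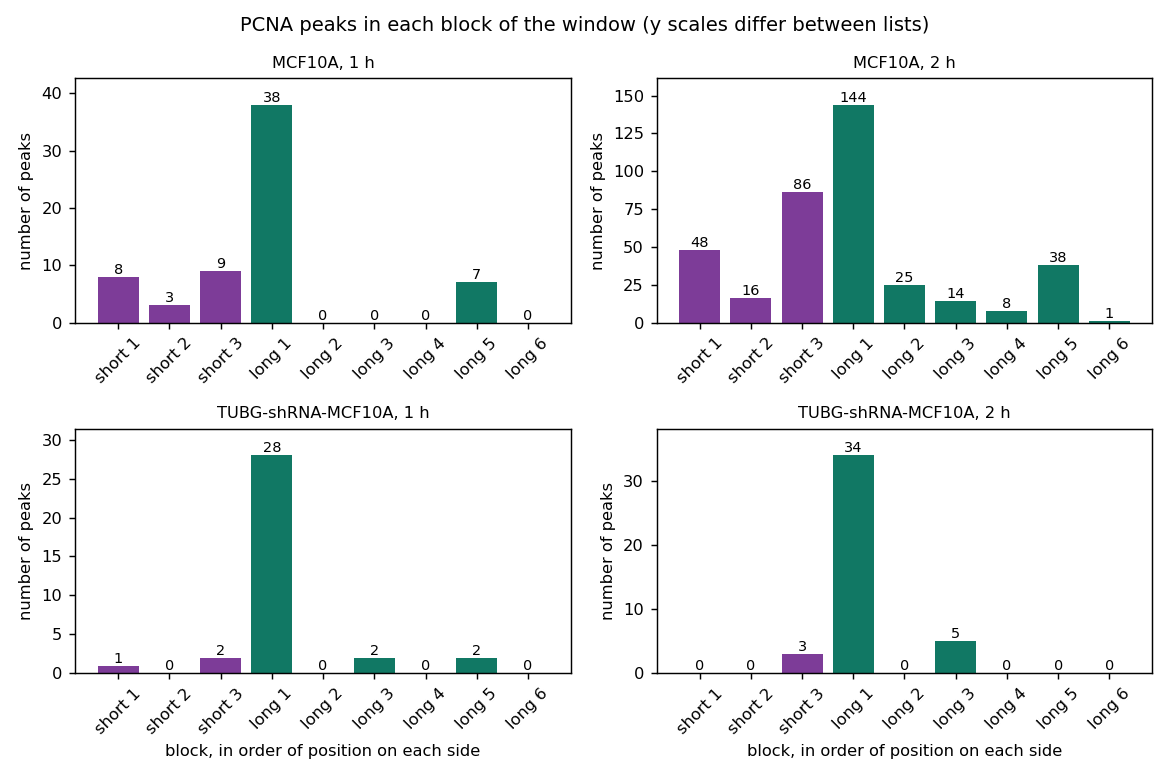
Number of PCNA peaks (y axis) in each of the 9 blocks (x axis, in order of position) for each list; purple bars are short-arm and green bars long-arm blocks, and the y scales differ between lists. The first long-arm block is the tallest in every list, with 38, 144, 28 and 34 peaks, and the short-arm bars of the shRNA lists reach at most 3.

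Neighbouring summits lay close together in the MCF10A list at 2 h, with a median distance of 672 bp on the short-arm side and 331 bp on the long-arm side. At 1 h, the median distance in MCF10A cells was 4164 bp on the short-arm side and 711 bp on the long-arm side. In shRNA cells, long-arm summits were a median of 1658 bp apart at 1 h and 863.5 bp at 2 h. Thus, long-arm peaks were denser than short-arm peaks in both MCF10A lists. Of the neighbouring long-arm summits, 30 of 44 pairs (1 h) and 207 of 229 pairs (2 h) were within 1 kb in MCF10A cells, as were 9 of 31 and 23 of 38 in shRNA cells. On the short-arm side, this held for 3 of 19 and 103 of 149 in MCF10A cells and 0 of 2 at each time in shRNA cells. Satellite DNA repeats a unit in tandem, so summits on it could recur at a fixed distance. Among the 511 pairs of long-arm summits up to 1000 bp apart in the MCF10A list at 2 h, the 2 fullest 10 bp bins held 12 pairs each, beside a median of 5 pairs per bin. Among the 145 short-arm pairs, the 4 fullest bins held 5 pairs each and the median bin 1. Each of these bins thus held 2.35% of the long-arm and 3.45% of the short-arm pairs. The densest 10 kb of the short-arm side in that list held 13 peaks, in the stretches from 38780001 and from 39080001, and the densest 10 kb of the long-arm side, from 42360001, held 40.

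The fold enrichment was higher on the short-arm side in every list, whereas the number of reads at the summit was higher on the long-arm side. The median fold was 4.30 on the short-arm and 3.25 on the long-arm side in MCF10A cells at 1 h, and 7.59 and 5.66 at 2 h. In shRNA cells, it was 5.06 and 2.02 at 1 h and 3.21 and 1.87 at 2 h, with only 3 short-arm peaks behind each short-arm value. The median summit held 30 reads on the short-arm and 58 on the long-arm side in MCF10A cells at 1 h, and 15.5 and 34 at 2 h. In shRNA cells, the median summit held 25 and 90 reads at 1 h and 26 and 107 at 2 h. The local background was also higher on the long-arm side, and the fold is the ratio of the reads to it. The reads and the background at each summit were solved from the listed fold and p-value, and the background is given as a multiple of the lowest one in the same list. In the shRNA list at 2 h, these multiples are lower bounds.

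The median background was 3.09 times the lowest on the short-arm side and 8.91 times on the long-arm side in MCF10A cells at 1 h, and 2.68 and 10.7 times at 2 h. In shRNA cells, it was 3.05 and 33.2 times at 1 h and 5.98 and 38.0 times at 2 h. Long-arm peaks of shRNA cells were thus located almost entirely where the background was high. A background of at least 10 times the lowest was found in 31 of 32 long-arm peaks at 1 h and 35 of 39 at 2 h in these cells, against 20 of 45 and 116 of 230 in MCF10A cells. On the short-arm side, it was found in 6 of 150 MCF10A peaks at 2 h and in none of the 20, 3 and 3 peaks of the other lists. The threshold of 10 was chosen after the values were seen. Higher backgrounds in shRNA cells were not confined to the window. Over all peaks outside it, the median was 9.95 and 5.35 times in MCF10A cells at 1 and 2 h. In shRNA cells, it was 22.0 and 23.1 times there. At the chromosome 16 region, it was 64.4 and 9.05 times in MCF10A cells, and 84.2 and 73.0 times in shRNA cells.

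Among the members with a background below 10 times the lowest, MCF10A cells had 45 peaks at 1 h and 258 at 2 h, whereas shRNA cells had 4 and 7. At these peaks, the ratio of MCF10A to shRNA cells was 11.2 at 1 h (95% exact binomial interval 4.10 to 43.1) and 36.9 at 2 h (17.6 to 92.6). Over all members, the same ratios were 1.86 (1.21 to 2.89) and 9.05. Over the whole lists, the median background was 9.43 and 5.35 times in MCF10A cells, and 22.6 and 23.6 times in shRNA cells. This limit thus leaves out most peaks of both shRNA lists but not of the MCF10A lists. The ratios below the limit were not computed outside the window, so whether they are particular to the window is not known. On the long-arm side alone, peaks below this background numbered 25 and 114 in MCF10A cells and 1 and 4 in shRNA cells. The ratio of 2 h to 1 h in MCF10A cells was 5.73 (4.16 to 8.06) with these members alone. The background multiple itself differed between the cell populations at the same places. In the 14 long-arm peaks of shRNA cells at 1 h that overlapped an MCF10A peak at 1 h, it had a median of 25.3 against 16.2 and was higher in shRNA cells in 14 of 14, so a fixed multiple does not select the same places in both. The part of the control libraries in these differences was not tested.

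**Figure D3:**
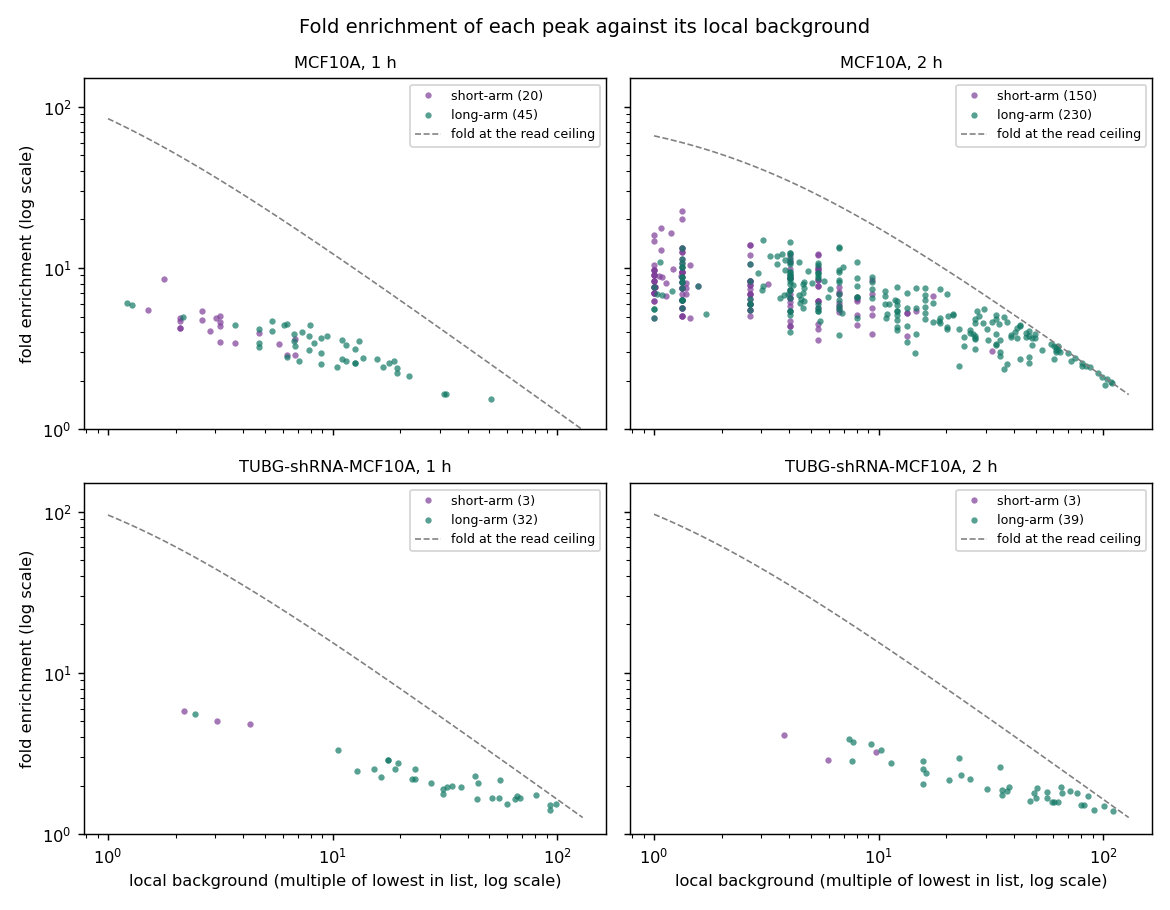
Fold enrichment (y axis, log scale) of each PCNA peak against its local background as a multiple of the lowest in the same list (x axis, log scale), 1 panel per list, with short-arm peaks in purple and long-arm peaks in green. The dashed line is the fold at 2 reads per bp of the fragment length, which no peak exceeded; the long-arm peaks of shRNA cells lie to the right (medians of 33.2 and 38.0 times), and MCF10A peaks at 2 h reach the line at high background.

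In the first long-arm block, the background was lower in the first stretch than in the second in each list. The first stretch was the 10 kb bins from 42350001 to 42380000, of which the block covers the part from 42354965. As the block ends at 42409290, the first stretch covers less of it than the second. The median background in the first stretch was 9.95 and 5.50 times the lowest in MCF10A cells at 1 and 2 h. In shRNA cells, it was 22.9 and 15.8 times. In the bins from 42380001 to 42410000, it was 33.3, 38.8, 62.5 and 59.2 times, in the same order. The split was made after these values were seen. The intervals below cover counting error only, with neighbouring peaks counted as independent, and do not test the lists against each other. MCF10A peaks at 1 h were concentrated in the first stretch, with 36 of the block's 38 peaks (94.7%, 95% Wilson interval 82.7 to 98.5). shRNA peaks were not, with 16 of 28 at 1 h (57.1%, 39.1 to 73.5) and 17 of 34 at 2 h (50%, 34.1 to 65.9), and MCF10A peaks at 2 h were in between with 93 of 144 (64.6%, 56.5 to 71.9). In the second stretch, MCF10A cells at 1 h thus had 2 peaks and shRNA cells at 1 h had 12, the reverse of the order in the first stretch, where they had 36 and 16.

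Within the block, the fold also differed between the stretches. The median fold was 3.05 in the first and 2.13 in the second stretch in MCF10A cells at 1 h, and 7.47 and 3.92 at 2 h. In shRNA cells, it was 2.24 and 1.67 at 1 h and 2.52 and 1.71 at 2 h. The summit reads were bounded in these lists. No summit of any list had more reads than 2 times the fragment length in bp, which is 1 read per position and strand, or 94 reads in MCF10A cells at 2 h and 224 to 242 in the other lists. In the second stretch, 15 of 51 MCF10A peaks at 2 h had at least 90% of this number, and over the whole long-arm side it was 23 of 230 (10%), against 0 of 150 on the short-arm side. In the other lists, at most 2 members came as close. For MCF10A cells at 2 h, the share of peaks this close over the whole list was not counted. Exactly 94 reads were found at 15 of the 2768 summits of that list, inside or outside the window. The sources used here do not state how duplicate reads were treated, and the part of this bound in the lower fold was not tested.

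**Figure D4:**
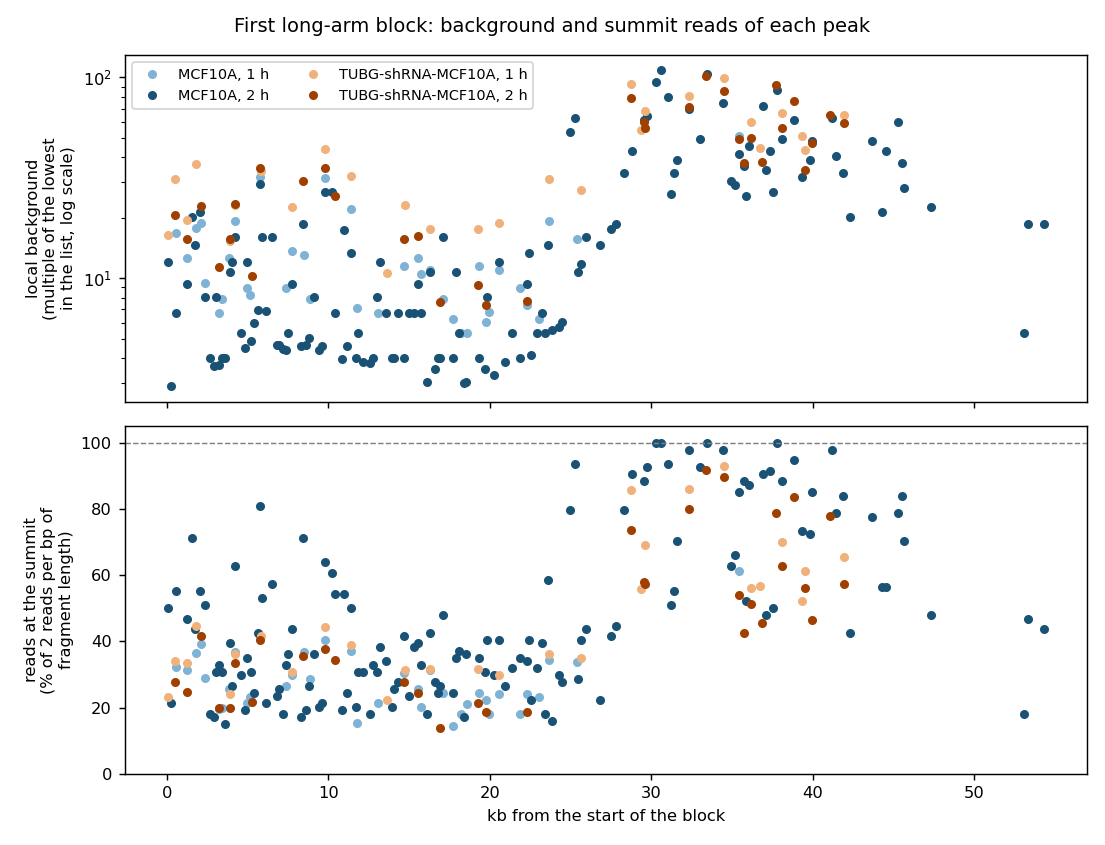
Local background as a multiple of the lowest in the list (top, y axis, log scale) and reads at the summit as a percent of 2 reads per bp of the fragment length (bottom, y axis) against the distance in kb from the start of the first long-arm block (x axis), with 1 point per peak and 1 colour per list. Backgrounds step up past the middle of the block, where MCF10A at 1 h has 2 peaks and 15 MCF10A peaks at 2 h have at least 90% of the reads at the dashed line.

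The other end of the range was found on the short-arm side. The highest fold of the window was at chr10:39076709-39076774 in MCF10A cells at 2 h, where 35 reads at the summit gave a fold of 22.7 (−log10 q-value 43.3). The background of this peak came from a single control read. At the second short-arm peak of that list by q-value (chr10:38873775-38873835), 31 reads over 1 control read gave a fold of 20.2. Both places overlapped an MCF10A peak at 1 h. In all, 70 short-arm and 41 long-arm peaks of this list had a background set by 1 to 3 control reads, and no member of the other lists did. For MCF10A cells at 1 h and shRNA cells at 1 and 2 h, the step of 1 control read was 0.984, 0.828 and 0.758. These steps lie below the lowest background of those lists (1.88, 1.36 and 1.39), so the contrast is partly given by these floors. The share of such peaks over the whole list was not counted. The median background of this list was 5.35 times the lowest both in the window and outside it. The 2 highest folds of the window thus rested on 1 control read each. In MCF10A cells at 1 h, the strongest short-arm peak (chr10:38814455-38814602) had 36 reads and a fold of 8.54, and it overlapped a peak at 2 h.

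The strongest long-arm peak of MCF10A cells at 2 h (chr10:42355382-42355826) had 52 reads, a fold of 13.5 (−log10 q-value 39.6), and its background corresponded to 5 control reads. It lies at the start of the first long-arm block, and it overlapped peaks of all other lists. At 1 h, the strongest long-arm peak of MCF10A cells (chr10:42363726-42363894) had 69 reads and a fold of 4.41. Those of shRNA cells had more reads and a lower fold. At 1 h, it was chr10:42600312-42600439 in the third long-arm block, with 165 reads, a fold of 2.17 (−log10 q-value 12.9). At 2 h, it was chr10:42394371-42394561 in the second stretch of the first block, with 129 reads, a fold of 2.63 (−log10 q-value 15.4). The latter was also the second strongest in shRNA cells at 1 h, with 137 reads and a fold of 2.31, and both places were shared with MCF10A cells at 2 h but not at 1 h.

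The few short-arm peaks of shRNA cells were not shared between the times, with 0 of 3 overlapping. At 1 h, they were chr10:38803440-38803617 with 25 reads and a fold of 5.06, chr10:39091180-39091325 with 22 reads and a fold of 5.82, and chr10:39096733-39096889 with 32 reads and a fold of 4.85. The first overlapped no peak of another list, the second overlapped MCF10A peaks at both times, and the third overlapped an MCF10A peak at 2 h. At 2 h, they were chr10:39079356-39079515 with 26 reads and a fold of 2.89, chr10:39102918-39103035 with 25 reads and a fold of 4.12, and chr10:39151068-39151252 with 46 reads and a fold of 3.21. Of these, the first overlapped an MCF10A peak at 2 h, the second none, and the third MCF10A peaks at both times. Overlap here means at least 25% of both peaks. The first also met an MCF10A peak at 1 h (chr10:39079173-39079389), but by less than that.

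Next, the lists were compared by overlap, where peaks were taken as shared if at least 25% of both was covered. Of the 65 MCF10A peaks at 1 h, 55 (84.6%) were shared with the list at 2 h, beside 79.7% of all peaks of that list. Both sides were alike in this, with 16 of 20 short-arm and 39 of 45 long-arm peaks. With the shRNA cells at 1 h, 15 of 65 (23.1%) were shared, beside 28.1% of all peaks. These were 1 of 20 short-arm and 14 of 45 long-arm peaks. Of the 35 shRNA peaks at 1 h, 20 (57.1%) were shared with 2 h, beside 58.6% of all peaks, and 15 (42.9%) with MCF10A cells at 1 h, beside 56.2%. Of the 42 shRNA peaks at 2 h, 39 (92.9%) were shared with MCF10A cells at 2 h, beside 83.2%, whereas 41 of the 380 MCF10A peaks at 2 h (10.8%) were shared with shRNA cells at 2 h, beside 11.8%. The lowest of these shares relative to all peaks was that of shRNA peaks in MCF10A cells at 1 h, with a 95% Wilson interval of 28.0 to 59.1. This interval covers counting error only and is too narrow for neighbouring peaks. All peaks also include those of the window, so the interval does not test the difference. Peaks of shRNA cells at 1 h that were not shared with MCF10A cells at 1 h had a higher background on the long-arm side, with a median of 55.2 times the lowest in 18 peaks against 25.3 times in 14 shared peaks.

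Shared peaks often had close summits. For the 14 long-arm peaks shared by both cell populations at 1 h, the median distance between summits was 9.5 bp, and the median summit held 77 reads in shRNA cells and 80 in MCF10A cells. The median fold was 2.14 against 2.57, and it was higher in shRNA cells in 4 of 14. Thus, where both populations had a peak at 1 h, the summits held similar numbers of reads, without adjustment for depth or fragment length. The lowest background was 1.36 reads in shRNA cells and 1.88 in MCF10A cells at 1 h, with fragments of 112 and 121 bp. Similar reads therefore stand for a higher multiple of the lowest background in shRNA cells. For the 20 peaks shared between the times in shRNA cells, all on the long arm, the median fold was 1.77 at 1 h and 1.86 at 2 h. In MCF10A cells, peaks shared between the times had a median fold of 4.49 at 1 h and 8.64 at 2 h on the short-arm side (16 pairs) and of 3.13 and 8.12 on the long-arm side (39 pairs). Only 1 of these 55 pairs had the higher fold at 1 h. Since the fold depends on the fragment length and the background of each list, these values are set side by side without a test.

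When overlapping peaks of all lists were merged, the window held 359 sites, 153 on the short-arm side and 206 on the long-arm side. Of the short-arm sites, 135 had a peak in 1 list, 15 in 2 lists, 3 in 3 lists and none in all 4. Of the long-arm sites, 141 had a peak in 1 list, 31 in 2 lists, 25 in 3 lists and 9 in all 4. Most sites in 1 list were of MCF10A cells at 2 h, with 130 on the short-arm and 140 on the long-arm side. The lists of the other conditions added only 6 sites of their own, since 353 of the 359 sites had an MCF10A peak at 2 h. Of the long-arm sites, 25 had a peak of shRNA cells at 1 or 2 h together with one of MCF10A cells at 2 h and none of MCF10A cells at 1 h.

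All 9 sites with a peak in every list lay in the first stretch of the first long-arm block, at backgrounds of 11.5 to 32.0 and 4.01 to 29.4 times the lowest in MCF10A cells at 1 and 2 h and of 15.2 to 43.9 and 9.24 to 35.3 times in shRNA cells. Ordered by the weakest q-value over the lists, the first was chr10:42374012-42374565, with a fold of 2.65 and 12.3 in MCF10A cells at 1 and 2 h and of 2.88 and 3.60 in shRNA cells. The second was chr10:42359093-42359420, where the fold was 2.41 and 7.47 in MCF10A cells and 2.52 and 2.32 in shRNA cells. The third was chr10:42356104-42356310, with 3.13 and 8.82 in MCF10A cells and 2.76 and 2.52 in shRNA cells. The summits of the 4 lists fell within 66, 21 and 16 bp of each other at these sites, and within 50 bp at 4 of the 9 sites. Over the 9 sites, the fold ranged from 1.65 to 3.31 and from 4.80 to 14.5 in MCF10A cells at 1 and 2 h, and from 1.65 to 2.88 and from 1.75 to 3.60 in shRNA cells. MCF10A cells at 1 h had the higher fold in 5 of 9 sites when compared with shRNA cells at 1 h and in 5 of 9 when compared with 2 h. MCF10A cells at 2 h had the highest fold in 9 of 9, while their summits held 33 to 76 reads against 59 to 100 at 1 h, with the shorter fragment length of that list.

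**Figure D5:**
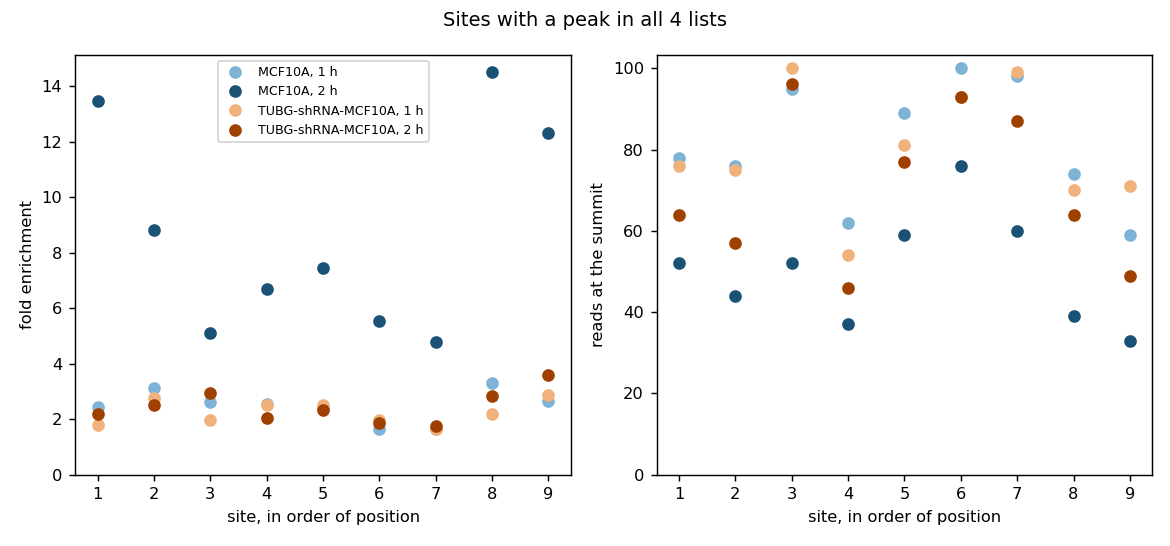
Fold enrichment (left) and reads at the summit (right) at the 9 sites with a peak in all 4 lists, in order of position (x axis), with 1 point per list. MCF10A at 2 h has the highest fold (4.80 to 14.5) and the fewest reads (33 to 76) at every site, and the other 3 lists overlap.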

How the data were processed

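PCNA ChIP-seq peaks were analysed for MCF10A cells and cells with the *TUBG* shRNA, 1 and 2 h after release, with groups taken from the labels. The authors called peaks on both libraries of a condition together, against whole-cell lysates, and the submitters' processing notes name hg19, Bowtie 1.0.0, MACS2 2.1.1 and bedtools 2.17.0. The deposited lists give the position, the fold enrichment (a ratio) at the summit, a −log10 p-value, a −log10 q-value and a score, which was not used. The weakest q-values were 0.0462 to 0.0498. The threshold and the treatment of duplicates are not given in the sources used here. The window, the sides and the rule for named peaks were chosen with earlier results of these data known. Named are the 3 peaks with the highest −log10 q-value per list and side, the sites in all 4 lists, the peaks at the edges and the densest 10 kb. Other places were named after their values were seen.

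Positions are given 1-based. Summit reads and background were solved from the fold, with the pseudocount of 1 of MACS2, and the Poisson p-value. The shortest peak of a list (121, 47, 112 and 115 bp, in the order MCF10A 1 h, 2 h, *TUBG*-shRNA-MCF10A 1 h, 2 h) was taken as its fragment length. The lowest background, which reflects the depth, was 15.5, 9.32, 12.1 and at most 12.1 reads per kb. Reads per library are not known here. Backgrounds were read as control reads where they were whole multiples, within 0.001 reads, of 1 step of their list. Shares have 95% Wilson and ratios 95% exact binomial intervals, for counting error only. No p-values are given because replicates were pooled before peak calling. The steps were tested on simulated data. Python 3.11.15, numpy 2.4.6, pandas 2.3.3, scipy 1.17.1 and matplotlib 3.10.9 were used. Alternatives were stricter q-values, a minimum fold of 5, joined peaks, base pairs covered and other overlap criteria. Blocks joined within 10 or 50 kb, ratios per side with joined peaks or a q-value of at most 1e-05, ratios without high-background peaks and joined peaks in the regions of chromosomes 4 and 16 were added after the data were seen. No sequence is shown, since no hg19 genome was used here.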

Additional observations from a re-analysis of the deposited data

How the results depend on the processing

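Of 128 alternative values, 58 stayed within the interval or, for counts, within 1.5 times of the value reported, and 70 did not. They are given in the order MCF10A 1 h, MCF10A 2 h, shRNA cells 1 h, shRNA cells 2 h. No ratio with an interval above 1 fell below 1, but the interval of MCF10A to shRNA cells at 1 h came to include 1 with joined peaks (1.24, 0.709 to 2.19) and with a fold of at least 5 (2, 0.427 to 12.4), as did 2 long-arm ratios with joined peaks, that of MCF10A to shRNA cells at 2 h and that of both times in MCF10A cells. With a q-value of at most 1e-10, the window held 20, 208, 2 and 3 peaks, with 85%, 69.2%, 100% and 100% on the long arm. With at most 1e-05, the shRNA lists kept 15 and 20 peaks. With a fold of at least 5, 6 peaks were left in MCF10A cells at 1 h and 3 and 0 in shRNA cells, and the long-arm share was 33.3%, 50.4% and 33.3% in the first 3 lists. Peaks joined within 1 kb numbered 31, 61 and 15 in both MCF10A lists and shRNA cells at 2 h, with long-arm shares of 45.2%, 36.1% and 80%. By base pairs covered, the long-arm share of MCF10A cells at 2 h was 71.8%.

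The MCF10A ratio of 2 h to 1 h was 10.4 with a q-value of at most 1e-10, 46.3 with a fold of at least 5, 1.97 with joined peaks and 3.08 in base pairs. That of shRNA cells was 0.6 with joined peaks, which turned its direction. The ratio of MCF10A to shRNA cells at 1 h was 3.4 and 10 with q-values of at most 1e-05 and 1e-10, and at 2 h 16.5 and 69.3, 4.07 with joined peaks and 5.52 in base pairs. Among alternatives chosen after seeing the data, it was 11.2 at 1 h and 36.9 at 2 h without high-background peaks. That limit also leaves out most shRNA peaks outside the window. Joined peaks gave MCF10A ratios of 2 h to 1 h of 2.29 (short arm) and 1.57 (long arm), a long-arm ratio of 0.545 in shRNA cells, and ratios of MCF10A to shRNA cells of 0.636 (long arm, 1 h), 13 (short arm, 2 h) and 1.83 (long arm, 2 h). With a q-value of at most 1e-05, the long-arm ratios were 3.08 and 11.5. The number of blocks was 9 with joining within 10 or 50 kb as well.

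Of MCF10A peaks at 1 h, 50.8% were shared with 2 h with at least 50% of both peaks, 93.8% with at least 1 bp and 69.2% with summits within 50 bp. Of shRNA peaks at 2 h, 57.1%, 97.6% and 71.4% were so shared with MCF10A cells. Sites in all 4 lists numbered 5 with summits within 50 bp joined, 1 with peaks within 1 kb joined, where whole stretches merge, and 3 with a q-value of at most 1e-05. Stricter q-values raised the median fold. With at most 1e-10 it was 5.41 and 3.79 on the short and long arm in MCF10A cells at 1 h, 9.74 and 6.42 at 2 h, and 2.63 on the long arm in shRNA cells at 2 h. With at most 1e-05 it was 8.10 on the short arm of MCF10A cells at 2 h, and 2.54 and 2.25 on the long arm in shRNA cells. With fewer peaks, the median spacing widened to 168343 and 1169 bp in MCF10A cells at 1 h, 1127 and 386 bp at 2 h, and 205897 and 19473 bp on the long arm in shRNA cells with at most 1e-10, where 1 and 2 distances were left. With at most 1e-05 the latter were 2982 and 2097 bp. Among neighbouring long-arm summits of MCF10A cells at 2 h, the fullest bin held 5.80%. Where no value is explained by fewer or merged peaks, the cause was not tested.

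No paired analysis was possible because peaks were called on pooled libraries, and for the same reason no library was left out. Peak lists show only what passed the authors' threshold. Where a background was set by 1 to 3 control reads, these limit the precision of the fold, and at high background the bound on summit reads limits its size. PCNA signal below the threshold is not seen here.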
